A study of Saccharomyces cerevisiae with 4 samples.

Results

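The genes described here encode proteins of the small-subunit processome of Saccharomyces cerevisiae, the particle that assembles on the nascent ribosomal RNA precursor and prepares the small ribosomal subunit. They were chosen by name as 44 open reading frames of a fixed list: the UTP proteins, the box C/D snoRNP proteins, the Mpp10 complex, the Bms1 GTPase with Rcl1, and further factors of the same pre-ribosome. All 44 were among the 6211 open reading frames of the deposited table, and each was matched by its systematic name to a gene of the RefSeq R64 table. Of the 44, 37 had a value on 4 arrays and 2 on 3 arrays, and these 39 were tested. UTP25 (YIL091C) had values on 2 arrays, 0.50 on replicate 2 and -0.31 on replicate 3, and was not tested. UTP10 (YJL109C), UTP14 (YML093W), RRP5 (YMR229C) and ESF1 (YDR365C) had no value on any array.

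The processome is built in steps. The UTP-A complex binds the 5′ end of the precursor while RNA polymerase I is still transcribing, the UTP-B complex and the U3 snoRNP follow, and base pairing of U3 with the precursor guides the early cleavages. In yeast the genes for these factors belong to a large set whose transcription follows growth rate and is known to fall under many stresses, under control of the TOR and protein kinase A pathways.

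Both RNAs on every array came from BY4741, a haploid laboratory strain of genotype MATa his3Δ1 leu2Δ0 LYS2 met15Δ0 ura3Δ0. Cultures in YPD, a rich medium, were grown at 28 °C to an absorbance of 0.6, and 50 ml then received either 10 µg/ml b-lapachone, a redox-cycling quinone, or the vehicle, 1% DMSO, for 1 h. Each of the 4 arrays set RNA of a treated culture against RNA of a vehicle culture (1 group, n = 4 biological replicates), with treated RNA in Cy3 on replicates 1 and 3 and in Cy5 on replicates 2 and 4. A ratio holds no level, so the strain could not be checked through its mating-type or marker genes, and every value below is a log2 ratio, not an expression level. RNA content per cell cannot be told apart from the abundance of a transcript relative to the others.

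The direction is taken as b-lapachone over vehicle, which is likely and not settled: nothing in the table names it, and were it the reverse, every sign given here would turn. Base 2 is likewise assumed. OSI1, SRX1, TRX2 and GPX2, genes of oxidant defence picked with their values already known, lay above 0 on all 4 arrays whatever the dye, between 0.79 and 2.62. The arrays had values for 4819 to 5534 open reading frames, column medians lay between -0.02 and 0.0029, and Pearson's r across genes was above 0 for all 6 pairs of columns, from 0.10 to 0.48, genes not being independent replicates. Of 5112 genes tested, 3.03% passed limma's test after Benjamini-Hochberg adjustment, 2.07% higher and 0.959% lower.

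No processome gene passed the test, in either direction (0 of 39 by limma, beside 3.03% of all genes tested). At an unadjusted p under 0.05 (limma) there were 10, all of them above 0 and 0 below. The genes nevertheless lay mostly above 0. A mean above 0 was measured for 34 of 39, against 46.8% of all genes tested, and the median of the means was 0.15, against -0.01. Every array measuring the gene had it above 0 for 15 of the 39, or 38.5%, where the background was 12.9%, and below 0 for 0 of them, where it was 14.4%. The unadjusted count of 10, or 25.6% of the 39, stood beside 10.2% of all genes higher at that p, and the count of 0 lower beside 8.63%. Ratios were small: the highest mean, that of BUD21, was a 1.45-fold difference, and the 95% interval of the mean lay wholly under a log2 ratio of 0.5 for 31 of the 39. The median standard error of a member's mean was 0.11, and the smallest mean called anywhere on the arrays had a size of 0.40, which BUD21 and RRP36 alone among the members exceeded. As these genes were listed with earlier results of the same arrays known, the counts describe them and are not an independent test.

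**Figure D1:**
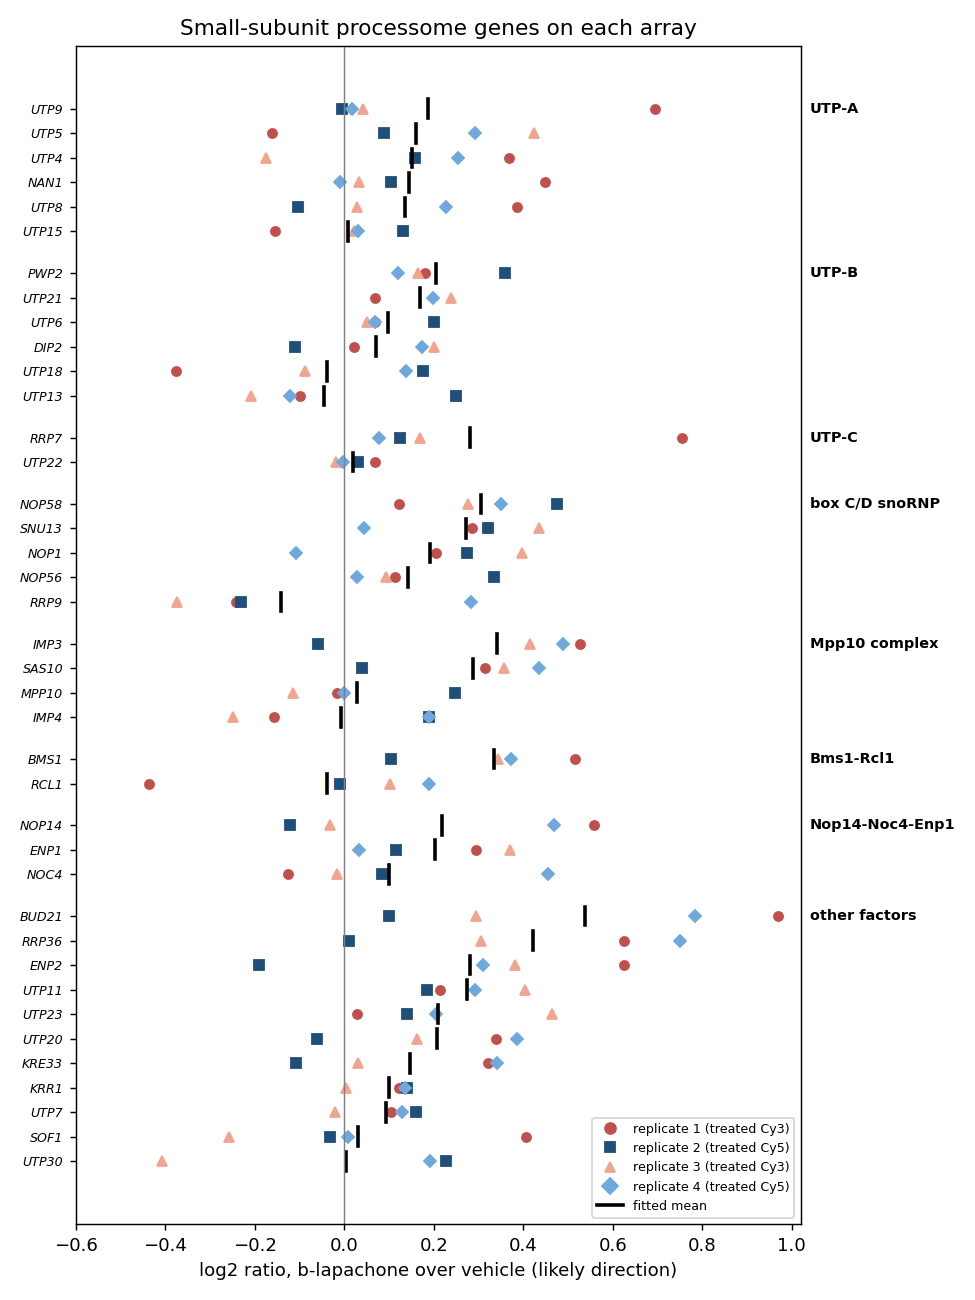
Log2 ratio of each of the 39 tested processome genes (rows, grouped by complex) on each array (points; colour and shape give the replicate and the dye of the treated RNA), with the fitted mean as a black bar. Most means sit to the right of 0, up to 0.54 for BUD21, while the points of single genes often span 0.

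The shift was present on every array. The median of the members was 0.19 on replicate 1, 0.11 on replicate 2, 0.09 on replicate 3 and 0.19 on replicate 4, where the median of all genes tested lay between -0.02 and 0.0016. Members above 0 numbered 29 of 38, 27 of 38, 27 of 39 and 35 of 39 on replicates 1 to 4. Which members stood highest differed between the arrays. Across members the columns of replicates 1 and 4 had r = 0.38 (38 genes), whereas replicate 2 had r = -0.21 with replicate 1 (37 genes) and -0.35 with replicate 4 (38 genes). Over all genes the same pairs had r = 0.25, 0.10 and 0.39. These correlations run across genes that share an array, and are descriptions.

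**Figure D2:**
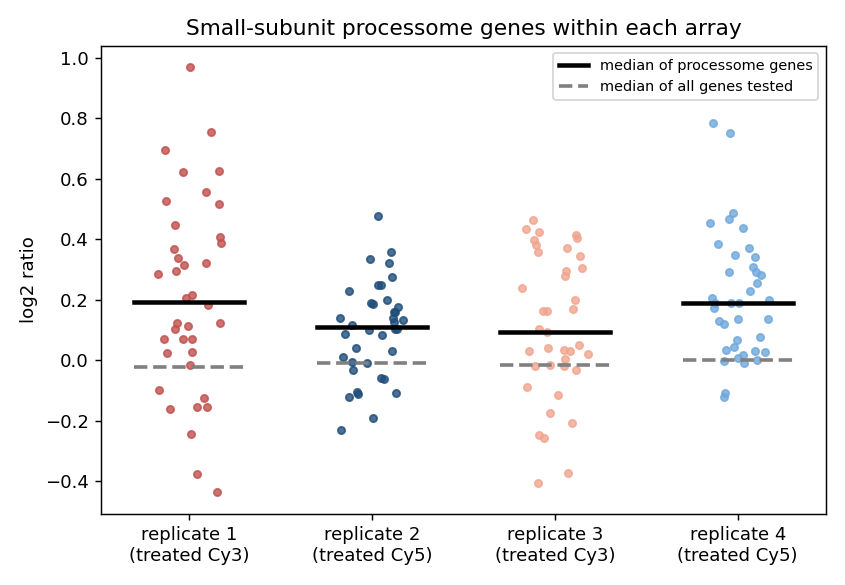
Log2 ratios of the tested processome genes on each of the 4 arrays (points), with their median (black) and the median of all genes tested (dashed grey). The members' median lies above that of all genes on each array, from 0.09 to 0.19, and replicate 1 has the widest spread.

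BUD21 (YOR078W, also UTP16), which encodes a component associated with the U3 snoRNP, had the highest mean. Its log2 ratio was 0.97, 0.10, 0.29 and 0.78 on replicates 1 to 4. All 4 values were above 0, with replicates 1 and 4 far above replicates 2 and 3. The mean of 0.54 ± 0.41 (SD, n = 4; 95% interval 0.23 to 0.84) missed the threshold (limma, Benjamini-Hochberg adjusted p = 0.0605), and 79 genes of the table had a higher mean. Its adjusted p ranged from 0.0251 to 0.429 over the alternatives, and it passed in 4 of them: without replicate 2 (mean 0.68, adjusted p = 0.0251, with 2.15% of all genes called higher), with array weights (0.0344, 3.44%), with quantile normalization (0.0420, 2.48%) and when only genes complete on 4 arrays were tested (0.0442, 2.71%).

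RRP36 (YOR287C), needed for the early cleavages of the precursor, followed. It was at 0.62, 0.01, 0.30 and 0.75 on replicates 1 to 4. The order of the arrays was nearly that of BUD21, with replicate 2 at 0. Its mean of 0.42 ± 0.33 (SD, n = 4) did not pass (limma, adjusted p = 0.103) and passed without replicate 2 (mean 0.56, adjusted p = 0.0367), with a highest adjusted p of 0.432 over the alternatives. That highest value, like the highest of BUD21, came with each gene's own variance, a fit that called 0 genes of the whole table.

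The Mpp10 complex joins Mpp10 with Imp3 and Imp4, which help U3 pair with the precursor, and with Sas10. IMP3 (YHR148W) was at 0.53, -0.06, 0.41 and 0.49 on replicates 1 to 4. Its 3 higher arrays lay close together and replicate 2 fell on the other side of 0. The mean was 0.34 ± 0.27 (SD, n = 4; limma, adjusted p = 0.144), and without replicate 2 it was 0.48 and passed (adjusted p = 0.0466, the other alternatives reaching up to 0.474). SAS10 (YDL153C, also UTP3) was at 0.31, 0.04, 0.36 and 0.44, again lowest on replicate 2, with a mean of 0.29 ± 0.17 (SD, n = 4; limma, adjusted p = 0.163). MPP10 (YJR002W), the scaffold, stood at 0.03 ± 0.15 (SD, n = 4). IMP4 (YNL075W) was at -0.16, 0.19, -0.25 and 0.19, so that its sign went with the dye, and its mean was -0.0064 ± 0.23 (SD, n = 4). The complex was thus split, with means near 0 for MPP10 and IMP4 and near 0.3 for the other members, but no difference between genes of the complex was tested.

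BMS1 (YPL217C) encodes the GTPase of the processome, and RCL1 (YOL010W) its partner, a protein related to RNA cyclases that Bms1 brings to the particle. BMS1 was at 0.52, 0.10, 0.34 and 0.37 on replicates 1 to 4, above 0 on each, and its mean was 0.33 ± 0.17 (SD, n = 4; limma, adjusted p = 0.115). RCL1 was at -0.44, -0.0093, 0.10 and 0.19. Replicate 1 set its sign, as the mean was -0.04 ± 0.28 (SD, n = 4) with that array and 0.09 without it. The partners lay apart on replicate 1 most of all.

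The box C/D snoRNP proteins are the fibrillarin methyltransferase Nop1, the paired scaffolds Nop56 and Nop58, the RNA-binding Snu13, and Rrp9, which is particular to the U3 particle. The common core proteins all had means above 0. NOP58 (YOR310C) was at 0.12, 0.48, 0.28 and 0.35 on replicates 1 to 4, with replicate 2 the highest, and its mean was 0.31 ± 0.15 (SD, n = 4; limma, adjusted p = 0.140). SNU13 (YEL026W), at 0.27 ± 0.16 (SD, n = 4), and NOP56 (YLR197W), at 0.14 ± 0.13, were above 0 on every array. NOP1 (YDL014W) was at 0.19 ± 0.21 (SD, n = 4), with -0.11 on replicate 4.

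RRP9 (YPR137W), the U3-specific protein, had the lowest mean of all 39 members. It was at -0.24, -0.23, -0.37 and 0.28 on replicates 1 to 4. The first 3 arrays were below 0 and replicate 4 was above it, where NOP1 by contrast was below. Its mean was -0.14 ± 0.29 (SD, n = 4; 95% interval -0.40 to 0.12; limma, adjusted p = 0.559), and without replicate 4 it was -0.28.

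UTP-A members bind first, and part of the complex is known to be needed for transcription of the ribosomal DNA. Of its 7 genes, 6 were tested, and all 6 means were above 0, between 0.0075 and 0.19, with a median of 0.15 that was 0.06 without replicate 1. None was above 0 on every array (0 of 6). UTP9 (YHR196W), at 0.19 ± 0.34 (SD, n = 4), owed its place at the top to replicate 1, where it was at 0.69 against at most 0.04 elsewhere. NAN1 (YPL126W, also UTP17), at 0.14 ± 0.21, was likewise highest on replicate 1, at 0.45. UTP5 (YDR398W), at 0.16 ± 0.26, UTP4 (YDR324C), at 0.15 ± 0.23, and UTP8 (YGR128C), at 0.13 ± 0.22, each had an array below -0.1. UTP15 (YMR093W) was at 0.0075 ± 0.12 (SD, n = 4).

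UTP-B, a complex largely of WD-repeat proteins, had 6 genes tested, 4 with means above 0 and 2 below, and a median of 0.08. PWP2 (YCR057C, also UTP1), at 0.21 ± 0.10 (SD, n = 4), UTP6 (YDR449C), at 0.10 ± 0.07, and UTP21 (YLR409C), at 0.17 ± 0.09 over the 3 arrays that measured it, were above 0 throughout. DIP2 (YLR129W, also UTP12) was at 0.07 ± 0.14 (SD, n = 4). UTP13 (YLR222C) was at -0.10, 0.25, -0.21 and -0.12 on replicates 1 to 4, above 0 on replicate 2 alone, with a mean of -0.04 ± 0.20 (SD, n = 4; limma, adjusted p = 0.856). UTP18 (YJL069C), whose product recruits the RNA helicase Mtr4 and with it the exosome, was at -0.38, 0.18, -0.09 and 0.14, so that its sign too went with the dye, and its mean was -0.04 ± 0.25 (SD, n = 4; limma, adjusted p = 0.884).

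UTP-C was represented by UTP22 and RRP7. In yeast their products also meet casein kinase 2 and Ifh1, a co-activator of ribosomal protein genes, in a separate assembly. RRP7 (YCL031C) was at 0.75, 0.13, 0.17 and 0.08 on replicates 1 to 4. Replicate 1 stood far above the rest, and the mean of 0.28 ± 0.32 (SD, n = 4; limma, adjusted p = 0.247) was 0.12 without it. UTP22 (YGR090W) barely departed from 0 on any array, at 0.02 ± 0.04 (SD, n = 4), the smallest SD of the 39. IFH1 (YLR223C), which is no member, was at 0.42, 0.22, 0.61 and 0.64 and rose, with a mean of 0.47 ± 0.19 (SD, n = 4; limma, adjusted p = 0.0365). Over the alternatives its adjusted p ran from 0.00914 to 0.299, and the call was lost without replicate 3 (0.290), without replicate 4 (0.170) and with its own variance (0.299). Those fits called fewer genes of the whole table higher, 21, 52 and 0 in that order, beside 106 in the main fit.

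NOP14 (YDL148C) and NOC4 (YPR144C) encode partner proteins, listed here with ENP1 (YBR247C), which stays on the particle to the cytoplasm. All 3 means were above 0. ENP1, at 0.20 ± 0.16 (SD, n = 4), was above 0 on every array. NOP14, at 0.22 ± 0.34, was high on replicates 1 and 4, at 0.56 and 0.47, and below 0 on the other two. NOC4 was at 0.10 ± 0.25, with 0.46 on replicate 4.

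Of the 15 other factors 11 were tested, and all 11 means were above 0, with a median of 0.21 that BUD21 and RRP36 headed. ENP2 (YGR145W), a WD-repeat protein, was at 0.62, -0.19, 0.38 and 0.31 on replicates 1 to 4, once more lowest on replicate 2, and its mean was 0.28 ± 0.34 (SD, n = 4; limma, adjusted p = 0.260). UTP11 (YKL099C) was the most even of the higher members, between 0.19 and 0.40, with a mean of 0.27 ± 0.10 (SD, n = 4; limma, adjusted p = 0.155). UTP23 (YOR004W), a PIN-domain-like protein tied to release of the snR30 snoRNA, was at 0.21 ± 0.19 and above 0 on every array. UTP20 (YBL004W), a large repeat protein, was at 0.21 ± 0.20, and KRE33 (YNL132W), the acetyltransferase of the small-subunit RNA, at 0.15 ± 0.22.

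Lower in the same group, KRR1 (YCL059C), a KH-domain protein, was at 0.10 ± 0.06 (SD, n = 4) and UTP7 (YER082C) at 0.09 ± 0.08. SOF1 (YLL011W) was at 0.03 ± 0.28, with 0.41 on replicate 1 and -0.26 on replicate 3. UTP30 (YKR060W) was at 0.0039 ± 0.36 over 3 arrays, with -0.41 on replicate 3 against 0.23 and 0.19 on replicates 2 and 4.

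Replicate 2 was the lowest array for 6 of the 8 members with the highest means over 4 arrays, replicates 1 and 4 for 1 each. The median of those 8 was 0.58, 0.07, 0.32 and 0.40 on replicates 1 to 4. Over all 37 members with 4 values, replicate 2 was the lowest for 13 and the highest for 10. The values of the 8 that chose them include the same arrays, so these medians are a description.

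The dye orientation was examined because a table of fixed dye ratios would show a dye difference in place of the mean. Over the values present, the mean of replicates 2 and 4, with treated RNA in Cy5, was above 0 for 38 of the 39 members, SOF1 being the exception, and that of replicates 1 and 3 for 30. In all genes these shares were 49.9% and 45.9%. Both were above 0 for 29 of the 39 members (74.4%, beside 27.8% of all genes), and both were below 0 for 0. A dye coefficient passed for no member (0 of 39 by limma, 1 at an unadjusted p under 0.05, beside 0.0391% of all genes passing and 9.76% at an unadjusted p under 0.05). The unadjusted case was UTP30, whose dye difference, Cy3 arrays minus Cy5 arrays, was -0.62. With 4 values on hand, the sign went with the dye for 4 members, IMP4, UTP18, NOC4 and MPP10, which lay above 0 on replicates 2 and 4. MPP10 was among them only through a value of 0.00023 on replicate 4. The share of all genes with such signs was not counted, so this count has no background and shows no dye trait of these members. The median of the dye difference, Cy3 arrays minus Cy5 arrays, was 0.06 over the members, beside -0.02 over all genes tested. The gap between these medians was not tested.

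**Figure D3:**
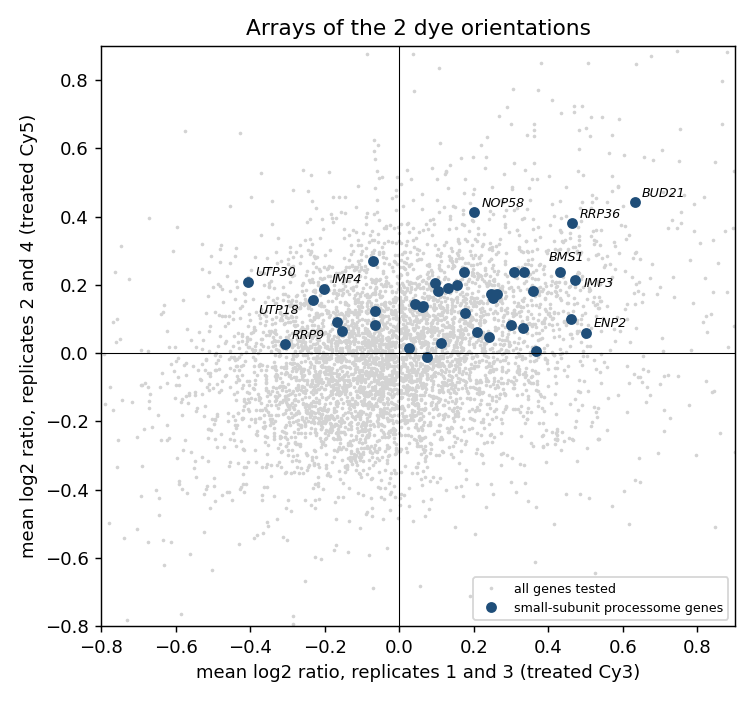
Mean log2 ratio of the arrays with treated RNA in Cy5 (vertical) against that of the arrays with treated RNA in Cy3 (horizontal), for all genes tested (grey; genes outside the plotted range are not shown) and the 39 processome genes (blue). Of the blue points 29 lie in the upper right part, none lies in the lower left, and 38 lie above the horizontal line.

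Other proteins of the same particle were taken from a list of 23 genes, mostly RNA helicases and late factors, of which 21 were tested. None passed (0 by limma, 3 higher and 1 lower at an unadjusted p under 0.05). Over all genes tested, 3.03% passed, and 10.2% were higher and 8.63% lower at that unadjusted p. Of the 21 means, 14 were above 0 (66.7%, beside 46.8% of all genes tested), and the median was 0.11. It was 0.06 without replicate 4, and on single arrays it ran from 0.02 on replicate 3 to 0.21 on replicate 4. SLX9 (YGR081C), of late small-subunit assembly and export, was at 0.37, 0.31 and 0.30 on replicates 1, 3 and 4 and had no value on replicate 2, with a mean of 0.33 ± 0.04 (SD, n = 3; limma, adjusted p = 0.155). BFR2 (YDR299W), a nucleolar factor of the early cleavages, had the largest size, at -0.36 ± 0.30 (SD, n = 3; limma, adjusted p = 0.182), and was at -0.23 without replicate 1. The list spread further below 0 than the members, its first quartile being -0.05 and theirs 0.05.

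Large-subunit assembly factors, the genes most like these in known control, had values in a like range. Of 53 listed, 51 were tested and none passed (0 by limma, beside 3.03% of all genes tested). At an unadjusted p under 0.05, 14 were higher and 0 lower, beside 10.2% and 8.63% of all genes tested. Their median was 0.14, with 44 of 51 means above 0, beside 46.8% of all genes tested. On every array 37.3% were above 0, where the background was 12.9%. REA1 (YLR106C), the large AAA ATPase that removes factors from the large subunit, was highest at 0.43 ± 0.38 (SD, n = 4; limma, adjusted p = 0.115), with 0.98 on replicate 1; without that array its mean was 0.25 and 6 genes of the list lay higher. No difference between the lists was tested.

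**Figure D4:**
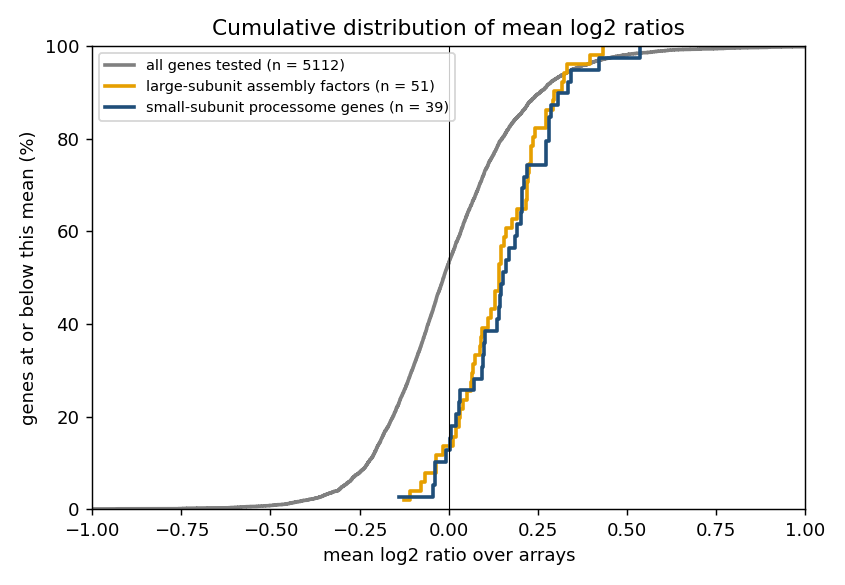
Cumulative share of genes (vertical, percent) by mean log2 ratio (horizontal) for all genes tested, the large-subunit assembly factors and the small-subunit processome genes. The curves of both assembly lists run to the right of that of all genes around 0 (medians 0.14 and 0.15 against -0.01) and meet it near the top.

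Of 10 regulators known to act on these genes or on ribosomal protein genes, IFH1 rose and none fell (limma, 2 higher and 2 lower at an unadjusted p under 0.05, beside 2.07% of all genes called higher and 10.2% higher and 8.63% lower at that unadjusted p). Their median of 0.0055 had no stable sign, lying between -0.04 and 0.05 with a replicate left out. STB3 (YDR169C), a repressor that binds a promoter element of processome genes, was at -0.44 ± 0.43 (SD, n = 3; limma, adjusted p = 0.155), with -0.90 on replicate 1 and no value on replicate 2. TOD6 (YBL054W), a repressor that binds another such element, was at 0.34 ± 0.27 (SD, n = 4; limma, adjusted p = 0.143). SFP1 (YLR403W), the activator, was at 0.88, 0.22, 0.04 and -0.11 on replicates 1 to 4. Its mean of 0.26 ± 0.44 (SD, n = 4; limma, adjusted p = 0.360) came largely from replicate 1. In the 3 alternatives that lost the call of IFH1 no regulator was called (0 in each). Without replicate 1 the regulators called numbered 2, both higher, IFH1 and TOD6. TOD6 was at 0.51, 0.29 and 0.59 on replicates 2 to 4, against -0.01 on replicate 1.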

How the data were processed

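The authors deposited a table with a value per open reading frame and array, read here as log2 ratios of the 2 channels. How the arrays were scanned, corrected and normalized, and the base and direction of the logarithm, is not given in the sources used here. Entries marked NULL or empty were missing values. No signal values were at hand to mark dim spots, and precision is limited by the number of arrays.

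For the 5112 genes measured on 3 or 4 arrays, limma 3.58.1 (R 4.3.3) fitted an intercept to the ratios (lmFit, eBayes) and tested it two-sided against 0, with Benjamini-Hochberg adjustment over all of them and a threshold of 0.05. Errors are SDs over arrays, and 95% intervals come from the moderated fit. The procedure was tested on simulated data, with added changes larger than the mean of every member but BUD21. That test does not cover differences as small as most of those given here. Gene names, gene order and gene lengths came from RefSeq's R64 table. No promoter sequences were at hand, so the promoter elements planned for description were not analysed here. The members and lists were chosen with earlier results of these data known. All 44 members are accounted for; values on every array are given for the 8 highest and 4 lowest means among members with 4 values, and of other lists the called genes and the largest in size are named; SLX9, STB3, TOD6 and SFP1 were named after their values were seen. Alternatives were a dye coefficient, centred, quantile-normalized or weighted arrays, genes on 4 or at least 2 arrays, each gene's own variance, and leaving out each replicate.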

Additional observations from a re-analysis of the deposited data

Results flagged for a closer look

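Of the 37 processome genes with 4 values, 4 had an array whose gap to the nearest other array was too large a part of the gene's range by Dixon's criterion at the 95% level. For normally distributed values chance flags about 1 gene in 20. The share flagged among all genes of these arrays is not given here, so the count of 4 has no measured background. RRP7 was at 0.75 on replicate 1, against 0.08 to 0.17 on the other arrays. UTP9 was at 0.69 on replicate 1, against -0.0060 to 0.04. UTP6 was at 0.20 on replicate 2, against 0.05 to 0.07. KRR1 was at 0.0045 on replicate 3, against 0.12 to 0.14. For UTP6 and KRR1 the other 3 arrays lay within 0.02 of each other, so the gap is small in log2 units. The source of these single-array values was not tested.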

How the results depend on the processing

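Across 11 alternatives the median of the members stayed above 0, between 0.11 (without replicate 1) and 0.16 (without replicate 2), and means above 0 numbered 31 to 36 of them when a replicate was left out. No member was called lower in any alternative. Members called higher were 0, and 1 with quantile normalization, 1 over genes on 4 arrays, 1 with array weights (BUD21 each time) and 0 to 3 on leaving out a replicate, the 3 (BUD21, RRP36 and IMP3) without replicate 2, where 2.15% of all genes were called higher. Of the 39 members, 27 kept their sign and stayed uncalled under every alternative that gave them a value. The sign turned for 9, all with means between -0.04 and 0.10. IMP4 was at 0.0031 with centred arrays and 0.016 with quantile normalization; RCL1 at 0.030, SOF1 at -0.045 and UTP30 at -0.055 with array weights; UTP30 at -0.099 with a dye coefficient. With a replicate left out, IMP4 ranged from -0.072 to 0.074, MPP10 from -0.044 to 0.077, NOC4 from -0.020 to 0.17, RCL1 from -0.11 to 0.094, SOF1 from -0.094 to 0.13, UTP13 from -0.14 to 0.0099, UTP15 from -0.034 to 0.061, UTP18 from -0.11 to 0.075 and UTP30 from -0.11 to 0.21. Among all genes tested, 106 were called higher and 49 lower. These became 176 and 98 with array weights, 0 and 0 with each gene's own variance (690 genes and 6 members at an unadjusted p under 0.05), and on leaving out a replicate 21 to 128 higher and 6 to 54 lower, the lowest without replicate 3; without replicate 4 they were 52 and 15. The causes were not tested. Each array is itself a comparison of a treated with a vehicle culture, so the test of the ratios against 0 already uses that pairing. There is 1 group, and no further pairing was available.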

Other observations

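The processome genes lie scattered over 14 chromosomes, and no tested member is the direct neighbour of another member in the R64 gene order. Their neighbours gave 68 tested genes that are not members, with a median mean log2 ratio of 0.03 and 38 means above 0 (55.9%, beside 46.8% of all genes tested). The 14 neighbours placed head to head with a member, which share the intergenic region upstream, had a median of 0.01. Of the 68 neighbours, 3 passed limma's test, IFH1 beside UTP13, and THI4 and ECL1 on either side of ENP2. That is 4.41% of them, near the 3.03% called among all genes tested. THI4 (YGR144W), of thiamine synthesis, rose by 0.60 ± 0.33 (SD, n = 4; limma, Benjamini-Hochberg adjusted p = 0.0270), and ECL1 (YGR146C) by 0.53 ± 0.32 (SD, n = 4; adjusted p = 0.0429). ENP2 itself, at 0.28, did not pass. These neighbours were named after their values were seen.

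The means had no plain order by gene length. The 13 shortest members tested, of 381 to 1323 bases, had a median of 0.21, the middle 13 had 0.10, and the 13 longest, of 2124 to 7482 bases, had 0.15. All tested genes of those length ranges had medians between -0.02 and -0.01.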
